A study of Mus musculus with 37 samples.

Results

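The cells described here are the T and NK cells among nonmyocytes harvested from injured mouse hearts at day 7 after myocardial infarction. They were chosen by their own counts: a barcode was taken when Cd3d, Cd3e, Cd3g, Trac, Trbc2 and Nkg7 summed to 3 counts or more, when C1qa, C1qb and C1qc held under 0.3% of its counts, and when Col1a1, Col1a2, Col3a1 and Dcn held under 0.5%. The rule found 284 cells among 12807 barcodes. Of these, 156 came from the ENPP1CKO library, with 7460 barcodes, and 128 from the control library, with 5347 barcodes. A single library per genotype was sequenced, so no comparison between the genotypes carries a test or a P value, and all limits given are 95% limits that cover counting error only.

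Both libraries hold nonmyocytes of C57BL/6 mice with an infarct from ligation of a coronary artery. In ENPP1CKO animals, a tamoxifen-inducible Cre driven by Col1a2 deletes floxed ENPP1, with tamoxifen given before and after injury, and control animals were littermates whose genotype is labelled wild type. The driver acts in cardiac fibroblasts (CFs) and other Col1a2-expressing cells, so T and NK cells of ENPP1CKO hearts are not themselves the cells targeted for deletion. The number of hearts behind each library, and whether control animals received tamoxifen or carried Cre or the floxed alleles, are not given in the sources used here.

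Most T cells recognize peptides on MHC molecules through a receptor of alpha and beta chains (constant segments Trac, Trbc1 and Trbc2). Gamma and delta chains (Tcrg and Trdc) form another receptor, which in general does not need a peptide on MHC, and both receptors assemble with the CD3 chains Cd3d, Cd3e and Cd3g. CD8 T cells kill infected or altered cells and read MHC class I, CD4 T cells help other immune cells and read MHC class II, and gamma delta T cells of tissues are an early source of IL-17. NK cells lack a rearranged receptor. They weigh activating receptors such as Ncr1 and Klrb1c against inhibitory receptors, which include some, but not all, members of the Klra (Ly49) family. NK and CD8 T cells share the granule protein Nkg7, granzymes and the chemokine Ccl5. In the infarcted heart these lymphocytes enter after the first wave of myeloid cells and are a small share of the infiltrate.

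T and NK cells made up 2.09% (1.78% to 2.44%) of ENPP1CKO barcodes and 2.39% (2.00% to 2.84%) of control barcodes, and these limits overlapped. Among barcodes that pass both limits on C1q and collagen counts, the shares were 10.1% (8.67% to 11.8%) and 10.3% (8.66% to 12.1%). A further 14 ENPP1CKO and 13 control barcodes reached 3 counts of the 6 genes but went past the C1q or the collagen limit. At the threshold itself, 4 ENPP1CKO and 7 control cells had exactly 3 counts, whereas 5 and 8 barcodes just outside it had 2 counts. The median sum of the 6 genes in chosen cells was 11 counts in ENPP1CKO and 12 in control.

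T and NK cells carried less RNA than their neighbors. Their median was 1564 counts per cell in ENPP1CKO and 1651 in control, against 3430 and 3753 counts for all other barcodes of the same libraries. Summed over cells, the ENPP1CKO profile held 283852 counts and the control profile 267080, so that 3 counts, used here as a floor, correspond to 10.6 and 11.2 CPM (counts of a gene scaled to a common profile total). The libraries held 28039559 and 22746607 counts in all. Scrublet, a doublet caller, marked 1 of the chosen cells in each library, against 2.02% and 1.29% of all barcodes, and these cells were kept. The libraries shared 68 barcode sequences, 0 of them among T and NK cells. Enpp1 itself was nearly undetected here, with 4 counts in 4 ENPP1CKO cells and 1 count in 1 control cell. In all other barcodes Enpp1 was lower in ENPP1CKO, with a count in 6.63% (6.07% to 7.22%) against 18.0% (17% to 19.1%) of barcodes.

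The name of the population was checked on the genes given for it, and on genes that the rule did not use. The 6 rule genes chose the cells, so their levels are a description: they ran from 606 CPM (Cd3e) to 2769 CPM (Nkg7) in ENPP1CKO and from 386 to 2625 CPM in control, against 0.178 CPM (Cd3e in control) to 4.80 CPM (Trac in control) in other barcodes. Gzma, a granzyme, stood at 1222 and 2355 CPM in ENPP1CKO and control T and NK cells, against 2.16 and 4.05 CPM in other barcodes. Ccl5 stood at 10720 and 6766 CPM, against 77.8 and 84.5 CPM. Because the rule names Nkg7 and the T cell receptor complex, genes that go with them are higher by the same choice, and the values below describe the cells without testing them.

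Of 1541 genes with at least 50 counts in T and NK cells of both libraries together, 411 (26.7%) were at least 2-fold higher than in other barcodes in both libraries. Ranked by the lower of both ratios among genes with 100 counts or more, the leading genes outside the rule included Trbc1, Gzma, Xcl1, Icos, Gm19585, Ms4a4b, Lat, Cxcr6, Il2rb, Sh2d2a, Gimap3, Trdc, Ctsw and Cd8a. They fall into known roles of lymphocytes: receptor chains (Trbc1, Trdc), the co-receptor Cd8a, signaling downstream of the receptor (Lat, Sh2d2a), costimulation (Icos), a shared subunit of the IL-2 and IL-15 receptors (Il2rb), the granule proteins Gzma and Ctsw, the chemokine Xcl1 and the homing receptor Cxcr6. Trbc1 had 757 CPM in ENPP1CKO T and NK cells against 0.757 CPM in other barcodes, a log2 ratio of 9.94, and 719 CPM against 0.890 CPM in control, a log2 ratio of 9.63. Trbc1 and Trbc2 are near copies of each other, so the division of reads between them is uncertain. Ms4a4b, a membrane protein of lymphocytes, had 2057 CPM against 4.47 CPM in ENPP1CKO and 1670 CPM against 2.89 CPM in control, and a count in 129 of 156 and in 100 of 128 cells. Among these genes, the smallest log2 ratio was 8.43, that of Cd8a in control.

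**Figure D1:**
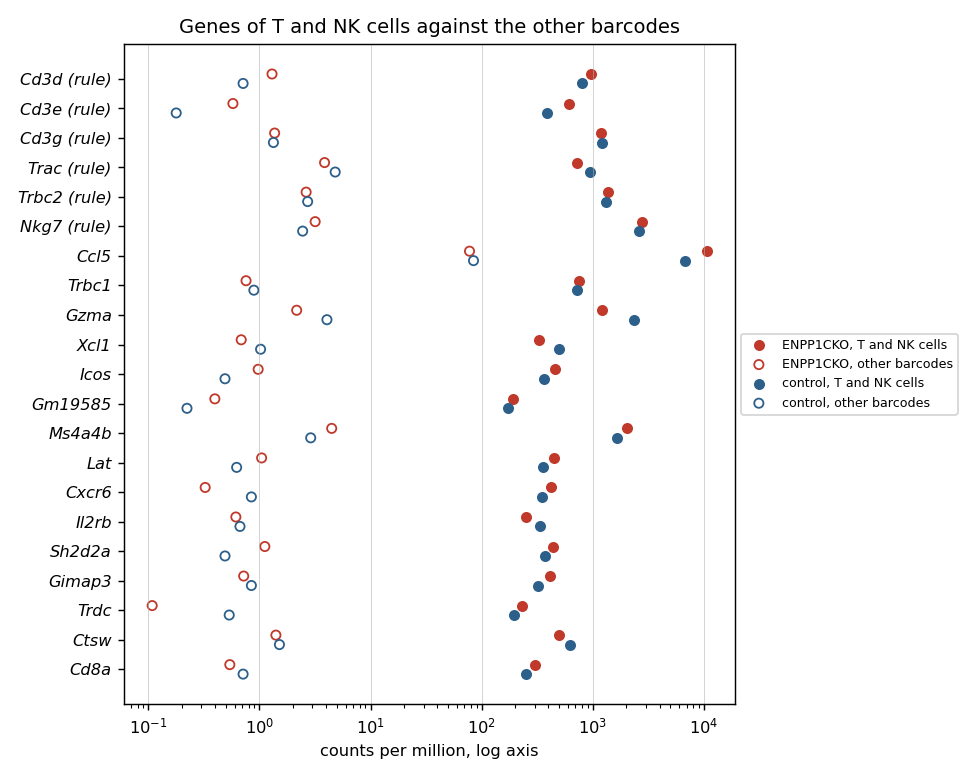
CPM (log axis) of the 6 rule genes, Ccl5 and the leading genes outside the rule named in the text, with T and NK cells and the other barcodes of each library as separate points. Every T and NK cell value lies to the right of the values of other barcodes. Trbc1 stands at 757 and 719 CPM in ENPP1CKO and control T and NK cells, against 0.757 and 0.890 CPM in other barcodes.

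The rule's limits on C1q and collagen genes leave few counts of macrophages and fibroblasts, so the low shares of both are a description and no check of the name. Macrophage genes held 0.0948% of counts in ENPP1CKO and 0.160% in control T and NK cells, against 2.58% and 3.15% in other barcodes, and fibroblast genes held 0.107% and 0.0989%, against 3.79% and 3.01%. Cpa3, Mcpt4, Tpsb2, Mcpt8, Ms4a2 and Gata2, markers of mast cells and basophils, were at 0 counts in both libraries, and so were Flt3, Xcr1, Clec9a, Cd209a and Siglech, markers of dendritic cells. Cells with at least 1% of their counts from any other cell type's list numbered 3 in ENPP1CKO and 2 in control. The 2 control cells carried dendritic cell genes, which summed to 330 counts in control and 64 in ENPP1CKO. In ENPP1CKO, endothelial genes summed to 154 counts against 40 in control, and pericyte or smooth muscle genes to 82 against 15. Igkc, an antibody light chain, had 23 counts spread over 21 ENPP1CKO cells and 18 counts in 4 control cells, 15 of them in 1 cell, while Pax5 was at 0 in both libraries.

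The cells were divided by the 5 T cell genes of the rule. Those with 3 counts or more of Cd3d, Cd3e, Cd3g, Trac and Trbc2 are called the CD3 side, those with 1 count or 0 the Nkg7 side, and those with 2 counts are between. The sides are ranges of counts, not cell types, and 20 ENPP1CKO and 9 control cells of the CD3 side had 3 or 4 such counts, close to the division. In ENPP1CKO, 136 of 156 cells (87.2%, 80.9% to 92.0%) were on the CD3 side, 5 were between and 15 (9.62%, 5.48% to 15.4%) were on the Nkg7 side. In control, 89 of 128 cells (69.5%, 60.8% to 77.3%) were on the CD3 side, 3 were between and 36 (28.1%, 20.5% to 36.7%) were on the Nkg7 side.

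The sides were cut on rule genes, so their shares are a description of the libraries. Of all barcodes the Nkg7 side made up 0.201% (0.113% to 0.331%) in ENPP1CKO and 0.673% (0.472% to 0.931%) in control, and these limits did not overlap. The CD3 side made up 1.82% (1.53% to 2.15%) and 1.66% (1.34% to 2.04%), with limits that overlapped. With each barcode thinned to 1000 counts, the Nkg7 side was 9.52% (5.02% to 16.1%) of the chosen cells in ENPP1CKO and 26.5% (18.1% to 36.4%) in control, and 0.174% (0.0897% to 0.303%) and 0.531% (0.347% to 0.778%) of barcodes. The thinned CD3-side shares, at 79.4% (71.3% to 86.1%) and 69.4% (59.3% to 78.3%), had limits that overlapped. Divided instead by whether the 5 T cell genes of the rule summed to more than Nkg7, the CD3 side held 70.5% (62.7% to 77.5%) of the chosen cells of ENPP1CKO and 63.3% (54.3% to 71.6%) of those of control, again with limits that overlapped. Median counts per cell were alike across sides, at 1564 on the CD3 side and 1645 on the Nkg7 side in ENPP1CKO, and at 1714 and 1596 in control. Hearts and library cannot be told apart from genotype in this difference. Macrophage genes on the Nkg7 side summed to 761 CPM (ENPP1CKO) and 2906 CPM (control), and their part in the result was not tested. Of the 12 genes of that list, Cd68 and Mrc1 alone had no count in ENPP1CKO T and NK cells, and every gene had a count in control. At least 1 count of the list was present in 123 ENPP1CKO and 114 control T and NK cells.

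**Figure D2:**
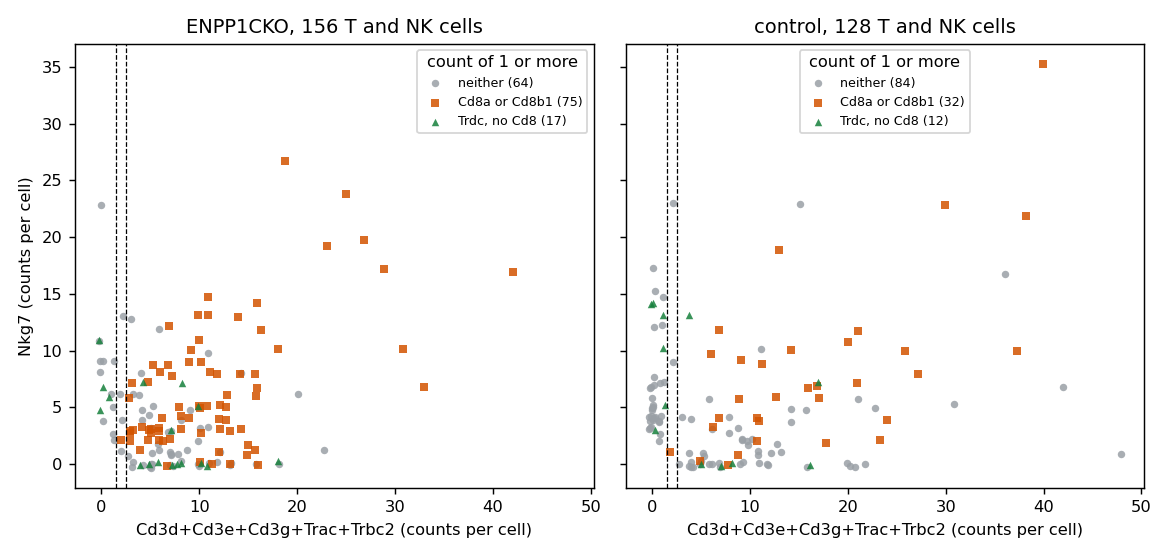
Each point is a T or NK cell, placed by its summed counts of Cd3d, Cd3e, Cd3g, Trac and Trbc2 (horizontal) and of Nkg7 (vertical), with ENPP1CKO and control in separate panels, dashed lines at the borders of the Nkg7 and CD3 sides, squares for cells with a count of Cd8a or Cd8b1, triangles for cells with Trdc and grey points for the rest (points are shifted slightly so that equal values can be seen). The Nkg7 side at the left edge holds 15 cells in ENPP1CKO and 36 in control.

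Genes outside the rule that differed between the sides were taken only where both libraries passed the same fold in the same direction. Of 1491 genes with at least 50 counts, 38 (2.55%) were at least 2-fold higher on the Nkg7 side in both libraries and 70 (4.69%) at least 2-fold lower. Highest were Klra8, Klra4, Irf8, Car2, Tyrobp, Klrb1c, Fcer1g, Cd9, Gzma and Klre1. Klra4, Klra8 and Klre1 are NK cell lectin receptors and Klrb1c encodes NK1.1, whereas Tyrobp and Fcer1g are the adaptors through which activating NK receptors signal. Klra8 had 29 counts in 8 of the 15 ENPP1CKO Nkg7-side cells against 1 count on the CD3 side, and 56 counts in 21 of the 36 control cells against 1 count. Tyrobp was at 2816 CPM on the Nkg7 side and 131 CPM on the CD3 side in ENPP1CKO, and at 2164 and 192 CPM in control. Irf8, a transcription factor of NK and myeloid cells, was at 1636 against 51.7 CPM in ENPP1CKO and at 1579 against 70.5 CPM in control. Gzma was at 4528 against 791 CPM in ENPP1CKO and at 7154 against 882 CPM in control.

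Lowest on the Nkg7 side were Cd8b1, Cxcr6, Cd8a, Ccr7, Grap2, Tmem176b, Cd6, Il7r, Ifi27l2a and Cd69. Cd8b1 had 202 and 110 counts on the CD3 side and 0 on the Nkg7 side of both libraries, at least 7.03-fold lower in ENPP1CKO and at least 11.7-fold lower in control, measured against 3 counts over the side. Cxcr6, a receptor of tissue-resident T cells, had 120 and 93 counts on the CD3 side and 0 on the Nkg7 side, at least 4.18-fold and at least 9.89-fold lower. Cd6 and Grap2 belong to T cell receptor signaling, and Il7r carries the survival signal of IL-7. At least 1 count of Ncr1, Klrb1c, Klra4, Klra8 or Klra9 was present in 14 of 15 cells of the Nkg7 side in ENPP1CKO and in 35 of 36 in control, against 20 of 136 (14.7%) and 13 of 89 (14.6%) cells of the CD3 side. The Klra genes are close paralogs, so counts of single members are uncertain. Trdc had a count in 4 and 6 Nkg7-side cells, Trbc1 in 12 and 23, and Cd8a or Cd8b1 in 0 and 0. In control, 1 cell of the Nkg7 side carried at least 100 counts of dendritic cell genes.

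Within the CD3 side, cells were sorted by whether they had a count of a co-receptor or of the delta chain. In ENPP1CKO, 74 of 136 cells (54.4%, 45.7% to 63.0%) had a count of Cd8a or Cd8b1, 1 had Cd4, 13 (9.56%) had Trdc and 48 (35.3%, 27.3% to 43.9%) had none of these. In control, 31 of 89 cells (34.8%, 25.0% to 45.7%) had Cd8a or Cd8b1, 7 (7.87%) had Cd4, 6 (6.74%) had Trdc and 45 (50.6%, 39.8% to 61.3%) had none. The share with a Cd8 count was higher in ENPP1CKO, and its lower limit of 45.7% coincided with the upper limit of control. A receptor transcript that was not captured cannot be told from one that is absent in the last class, whose median depth was 1545 counts in ENPP1CKO and 1546 in control. No cell had both Cd4 and a Cd8 gene.

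Control cells with a Cd8 count were deeper, with a median of 2408 counts against 1644 in ENPP1CKO. After thinning to 1000 counts, 40.2% (31.2% to 49.6%) of the CD3-side cells of ENPP1CKO had Cd8b1, against 24.1% (15.1% to 34.98%) in control, and Cd8a was in 28.2% (20.3% to 37.3%) and 17.7% (10.04% to 27.9%). The limits overlapped for both genes, and the share with either gene was not thinned. The background in cells that should lack the gene was under 1%. Thinned likewise, Cd8b1 was in 0.0936% of ENPP1CKO and 0.0652% of control collagen-rich barcodes (2% or more of counts from the 4 fibroblast genes of the rule), whose median depths were 4024 and 5185 counts, and in 0.107% and 0 of C1q-rich barcodes (0.5% or more of counts from the C1q genes), with 3319 and 3621 counts.

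**Figure D3:**
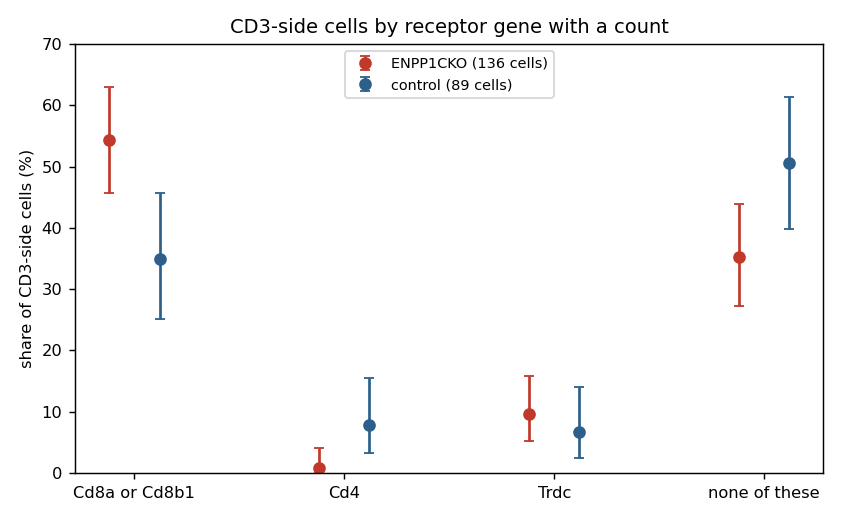
Share of CD3-side cells (%) with a count of Cd8a or Cd8b1, of Cd4, of Trdc or of none of these, with points for ENPP1CKO (136 cells) and control (89 cells) and whiskers for exact 95% limits of counting error. The Cd8 share is 54.4% in ENPP1CKO and 34.8% in control, and the share with none of these is 35.3% and 50.6%.

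The classes differed in the genes they carried, in both libraries. In Cd8 cells the rule gene Nkg7 stood at 3333 CPM (ENPP1CKO) and 3232 CPM (control), and Ccl5 at 12930 and 9379 CPM. In the cells with no such receptor count, Nkg7 was at 1517 and 1432 CPM and Ccl5 at 7729 and 3235 CPM. Gzma, Gzmb and Xcl1 did not share this order in both libraries. Gzma was at 720.5 CPM in Cd8 cells and 1116 CPM in cells with no such count in ENPP1CKO, against 1585 and 442 CPM in control, and Gzmb at 329.9 and 376 CPM against 646 and 131 CPM. In control, 1 Cd8 cell held 67 of the 130 Gzma counts of its class. Xcl1 was lower in Cd8 cells of both libraries, at 162 and 230.5 CPM in ENPP1CKO and 171 and 263 CPM in control, with limits that overlapped in each. Trdc cells held Tcrg-C1, a gamma chain, with 15 counts in 9 of 13 ENPP1CKO cells and 7 counts in 2 of 6 control cells, while Cd8 cells had 0 in both libraries. Cd163l1, a scavenger receptor known from IL-17-making gamma delta T cells, was found in 7 ENPP1CKO and 2 control Trdc cells and in 1 and 0 Cd8 cells. Cxcr6 was at 1413 CPM in ENPP1CKO Trdc cells against 370 CPM in Cd8 cells, and at 767 against 293 CPM in control. Icos was at 1304 against 303 CPM in ENPP1CKO and at 329 against 158 CPM in control. For Cxcr6 and Icos the limits of both classes overlapped in control, where Icos had 3 counts in Trdc cells. The Trdc profile of control rests on 9130 counts from 6 cells and that of ENPP1CKO on 18403 counts from 13 cells.

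Among cells without a Cd8, Cd4 or Trdc count, the transcription factor Maf had 10 counts in 8 ENPP1CKO cells and 18 counts in 10 control cells, and 0 in the Cd8 cells of either library. It was also found in 1 ENPP1CKO and 2 control Trdc cells and in 4 control Cd4 cells. Tnfrsf4, the costimulatory receptor OX40 of activated and regulatory CD4 T cells, had 7 counts in 4 ENPP1CKO cells of this class, 40 counts in 9 control cells of this class and 23 counts in 2 control Cd4 cells, and again 0 in Cd8 cells. Cd4 transcripts were scarce throughout, with 1 count in ENPP1CKO and 8 counts in 7 control cells, and Foxp3, the factor of regulatory T cells, had 0 and 2 counts. Cd4 is also found in macrophages: it had a count in 0.780% of ENPP1CKO and 0.896% of control C1q-rich barcodes.

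IL-17 came from few cells. Il17a had 25 counts in 5 ENPP1CKO cells, from 1 to 11 per cell, and 36 counts in 4 control cells, from 1 to 16 per cell. None of them had a Cd8 count, and 3 ENPP1CKO cells and 1 control cell had Trdc. All 5 ENPP1CKO and 3 of the 4 control cells carried Tmem176a or Tmem176b, membrane proteins known from type 17 lymphocytes, which had a count in 21 and 13 T and NK cells in all. Cells with Il17a were 3.21% of T and NK cells in ENPP1CKO and 3.13% in control.

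To compare the genotypes, counts were summed over the T and NK cells of each library. Of the 1541 genes with 50 counts or more, 10 (0.649%) were at least 2-fold higher in ENPP1CKO and 47 (3.05%) at least 2-fold lower. For each gene of both groups the limits of the log2 ratio excluded 0, which the floor and the fold threshold together already ensure. The median log2 ratio over all 1541 genes was -0.09, with 680 genes higher and 861 lower. Scaling by TMM factors moved that median to 0.02. In other barcodes of the same libraries, 7 of the 10 and 40 of the 47 differed in the same direction, and 1 and 5 of them by 2-fold or more. Where the ratio in other barcodes was as large, it is given beside the gene.

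Several of the most extreme ratios rested on few cells. Fabp4, a fatty acid carrier of endothelial cells and the gene with the highest ratio, had 121 counts in ENPP1CKO and 18 in control, a log2 ratio of 2.63 (1.94 to 3.46), but 63 of the 121 counts were in 1 cell and 90.1% in 3 cells, and other barcodes showed a log2 ratio of 2.45. Without the cells that hold 1% or more of another cell type's genes, the log2 ratio of Fabp4 was -0.66. Spp1, osteopontin, was the lowest among the same genes, with 6 counts against 62, a log2 ratio of -3.35 (-4.96 to -2.25). Of the 62 control counts, 49 were in 1 cell. Without the cells called doublets, its log2 ratio was -1.15. The MHC class II genes were of the same kind. Cd74 had 36 counts in 31 ENPP1CKO cells against 210 counts in 31 control cells, with 140 of these in 1 cell, and H2-Aa had 10 counts against 59, with 39 in 1 cell, and H2-Ab1 16 counts against 78, with 56 in 1 cell. Hes1, a target of Notch, had 11 counts against 47, with 27 in 1 control cell, and the macrophage gene Wfdc17 had 11 counts against 46, with 23 in 1 control cell. Dendritic cell genes as a list had 64 counts against 330 in the same profiles. Without the cells that hold another cell type's genes, Cd74, H2-Aa, H2-Ab1 and Wfdc17 were no longer 2-fold lower. Cd74 stayed over 2-fold lower on the CD3 side alone (-1.24), after thinning (-1.37) and with at least 5 counts of the rule genes (-1.245). H2-Ab1 was under 2-fold on the CD3 side alone and with at least 5 counts of the rule genes.

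Other ratios were spread over many cells. Jund, an AP-1 transcription factor, had 27 counts in 25 of 156 ENPP1CKO cells and 155 counts in 74 of 128 control cells, a log2 ratio of -2.59 (-3.26 to -2.01). Klf2, which keeps T cells quiescent and recirculating, had 17 counts in 17 ENPP1CKO cells and 84 counts in 38 control cells, a log2 ratio of -2.36 (-3.24 to -1.63). Both genes were also lower in the other barcodes of ENPP1CKO, with log2 ratios of -1.60 for Jund and -1.29 for Klf2. Lymphocytes thus shared the direction with the rest of the library, but their ratios were larger, with limits that excluded those values. Arpc4, a subunit of the actin-branching Arp2/3 complex, had 28 counts in 25 cells against 85 counts in 53 cells, a log2 ratio of -1.67 (-2.36 to -1.06), with -0.75 in other barcodes. Among the higher genes, Gabpb1, a subunit of the transcription factor GABP, had 39 counts in 24 cells against 11 counts in 11 cells, a log2 ratio of 1.69 (0.74 to 2.85), with -0.01 in other barcodes. Ramac, a cofactor of mRNA cap methylation, had 59 counts in 47 cells against 23 counts in 21 cells, a log2 ratio of 1.25 (0.55 to 2.03), and Arid5b, a chromatin regulator, had 42 counts in 33 cells against 17 counts in 16 cells, a log2 ratio of 1.19 (0.37 to 2.12). Ramac was under 2-fold after thinning, with a log2 ratio of 0.78, and Arid5b was under 2-fold among cells with at least 2 counts of the rule genes. Selenop, a selenium carrier of macrophages, had 44 counts in 26 cells against 18 counts in 16 cells, but stood at 1283 and 1128 CPM in other barcodes and only 155 and 67.4 CPM in T and NK cells. Atp1b3, a subunit of the sodium pump, had 74 counts in 55 cells against 35 counts in 30 cells. Gpr18, a lipid receptor of lymphocytes, had 43 counts in 31 cells against 20 counts in 13 cells. The ratios of Atp1b3 and Gpr18 were under 2-fold, so neither is among the 10 genes counted as higher. Tmem176a had 36 counts in 15 cells against 15 counts in 10 cells, and Tmem176b 44 counts in 18 cells against 20 counts in 8 cells, and both ratios were under 2-fold on the CD3 side alone, without the dividing cells, after thinning, and with at least 2 or at least 5 counts of the rule genes.

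Gene lists were read at a lower floor, among genes with 20 counts or more in both libraries together. Of 3393 such genes, 93 (2.74%) were at least 2-fold higher in ENPP1CKO and 210 (6.19%) at least 2-fold lower, 57.4% were lower by any amount, and the median log2 ratio was -0.09 in all T and NK cells and -0.11 on the CD3 side alone. The lists below are set against these values, and their counts are a description of the libraries.

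Of 10 measured genes of the T cell receptor complex, 5 are rule genes (Cd3d, Cd3e, Cd3g, Trac and Trbc2), so the list's counts and median are a description. Among the 10, 7 were higher and 3 lower in ENPP1CKO, with a median log2 ratio of 0.17 in all cells and -0.00 on the CD3 side alone. Of the rule genes, Cd3e had 172 counts against 103, and Trac 203 against 252. Of the gamma chain genes, which the rule did not use, Tcrg-C2 had 36 counts in 20 ENPP1CKO cells and 5 counts in 3 control cells, a log2 ratio of 2.64 (1.41 to 4.47), and Tcrg-C1 had 21 counts in 13 cells and 8 counts in 3 cells, a log2 ratio of 1.25 (0.07 to 2.69). Of the Tcrg-C2 counts, 24 in ENPP1CKO and 4 in control lay in Cd8 cells. The Tcrg constant genes resemble each other closely, so their separate counts are uncertain. Among co-receptors, Cd8b1 had 203 counts in 69 cells against 111 counts in 29 cells, a log2 ratio of 0.78 (0.44 to 1.13), and Cd8a 86 counts in 48 cells against 67 counts in 26 cells, a log2 ratio of 0.27 (-0.21 to 0.76). Signaling genes behind the receptor were divided, 11 higher and 8 lower. The costimulatory receptor Cd28 had a log2 ratio of 0.58 (0.11 to 1.07), and the adaptor Trat1 one of -1.20 (-2.56 to -0.04).

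NK receptors differed between the sides as well as between the libraries. In all cells, 7 of 17 measured genes of the list were higher and 10 lower in ENPP1CKO, with a median log2 ratio of -0.46, whereas on the CD3 side alone 9 were higher and 8 lower, with a median of 0.19. Fcer1g had 157 counts against 312, a log2 ratio of -1.08 (-1.37 to -0.80), but 70 counts against 58 on the CD3 side, a log2 ratio of -0.07 (-0.59 to 0.46). Over all cells, Fcer1g was no longer 2-fold lower with TMM scaling or with at least 2 or at least 5 counts of the rule genes. The same held without the cells that hold another cell type's genes. Tyrobp had 120 counts against 194, a log2 ratio of -0.78 (-1.12 to -0.45). Klrb1c had 28 counts in 16 cells against 54 counts in 31 cells, and Ncr1 11 counts in 7 cells against 26 counts in 16 cells. Summed within each side, the list was higher in ENPP1CKO, with a log2 ratio of 0.18 (0.01 to 0.35) on the Nkg7 side. On the CD3 side it was 0.39 (0.19 to 0.59), whereas the sum over all cells was lower, at -0.38 (-0.50 to -0.26). Klrd1, the CD94 chain shared by NK and CD8 T cells, went the other way, with 164 counts against 103, a log2 ratio of 0.58 (0.22 to 0.95) in all cells and 1.30 (0.78 to 1.88) on the CD3 side. Klra7 had 62 counts in 18 cells against 24 counts in 17 cells, a log2 ratio of 1.26 (0.58 to 2.03), and was higher on both sides, with log2 ratios of 2.83 on the CD3 side and 1.27 on the Nkg7 side. Its log2 ratio in all cells was 0.93 without the dividing cells described below and 0.83 after thinning, both under 2-fold.

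Of 11 measured genes of cytotoxic granules and death ligands, 5 were higher, the rule gene Nkg7 among them, and 6 lower, so count and median are in part a description of the choice of cells. The list had a median log2 ratio of -0.12 in all cells and 0.27 on the CD3 side. Gzma had 347 counts in 37 cells against 629 counts in 42 cells, a log2 ratio of -0.95 (-1.14 to -0.75) in all cells and of -0.16 (-0.46 to 0.14) on the CD3 side. In cells that had it, the median was 5 counts in ENPP1CKO and 12.5 in control. The highest cells had 33 counts (ENPP1CKO, Nkg7 side) and 67 counts (control, CD3 side), so the CD3-side ratio leaned on 1 control cell. On the Nkg7 side, Gzma stood at 4528 CPM (ENPP1CKO) and 7154 CPM (control), a log2 ratio of -0.66 (-0.96 to -0.37). Gzmb had 118 counts in 37 cells against 125 counts in 35 cells. Gzmk, a granzyme of memory CD8 T cells, had 51 counts in 35 cells against 17 counts in 9 cells, a log2 ratio of 1.47 (0.68 to 2.38), and other barcodes were at 0.0721 and 0.0445 CPM. Among Cd8 cells alone, 29 of 74 in ENPP1CKO and 5 of 31 in control had Gzmk. Serpinb9, the inhibitor that protects killer cells from granzyme B, had a log2 ratio of 0.51 (0.16 to 0.87), and Prf1, perforin, had 21 and 27 counts.

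Of 6 measured chemokine genes, 2 were higher and 4 lower, with a median log2 ratio of -0.73. Ccl5, which draws T cells and monocytes, was the most abundant. It had 3043 counts in 116 of 156 ENPP1CKO cells and 1807 counts in 91 of 128 control cells, a log2 ratio of 0.66 (0.58 to 0.75). Ccl5 was higher on the CD3 side (0.85, 0.75 to 0.95) and on the Nkg7 side (0.75, 0.55 to 0.94). The Nkg7-side value leaned on 1 ENPP1CKO cell with 141 counts, whereas no other ENPP1CKO cell of that side had more than 44. The ratio without that cell was not calculated, so the Nkg7 side gives no secure direction. The share of cells with Ccl5 was alike, at 74.4% and 71.1%, and the median in cells that had it was 21 counts against 14. Thinned to 1000 counts, Ccl5 had a count in 70.1% of ENPP1CKO and 58.2% of control CD3-side cells, against 0.999% and 1.04% of collagen-rich and 3.89% and 5.30% of C1q-rich barcodes. Ccl4 had 249 counts against 137, a log2 ratio of 0.77 (0.47 to 1.09), of which 109 and 44 counts were on the Nkg7 side, and 94 of the ENPP1CKO and 41 of the control counts were in 1 cell each. Xcl1, which attracts cross-presenting dendritic cells, was lower over all cells, with 93 counts against 134 and a log2 ratio of -0.61 (-1.01 to -0.22). In ENPP1CKO it had a count in 11 of 15 Nkg7-side cells but in 24 of 136 CD3-side cells. The Nkg7 side made up 9.62% of the chosen cells in ENPP1CKO and 28.1% in control, and the part of this in the Xcl1 ratio was not tested.

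All 6 measured cytokines had a log2 ratio under 0, with a median log2 ratio of -0.52. Areg, the repair factor amphiregulin, had 9 counts in 6 cells against 39 counts in 6 cells, a log2 ratio of -2.14 (-3.44 to -1.13), and 25 of the 39 control counts were in 1 cell. Without the cells rich in cell cycle genes described below, the log2 ratio of Areg was -0.21. Tgfb1 had 44 counts in 35 cells against 73 counts in 47 cells, a log2 ratio of -0.81 (-1.39 to -0.26). Ifng had 42 counts in each library, in 18 and 16 cells, and Ltb 116 and 115 counts, log2 ratios no larger than the shift made by TMM scaling. Lta had 0 counts in ENPP1CKO and 16 in 3 control cells, 12 of them in 1 cell, at least 5.67-fold lower measured against 3 counts over the profile.

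**Figure D4:**
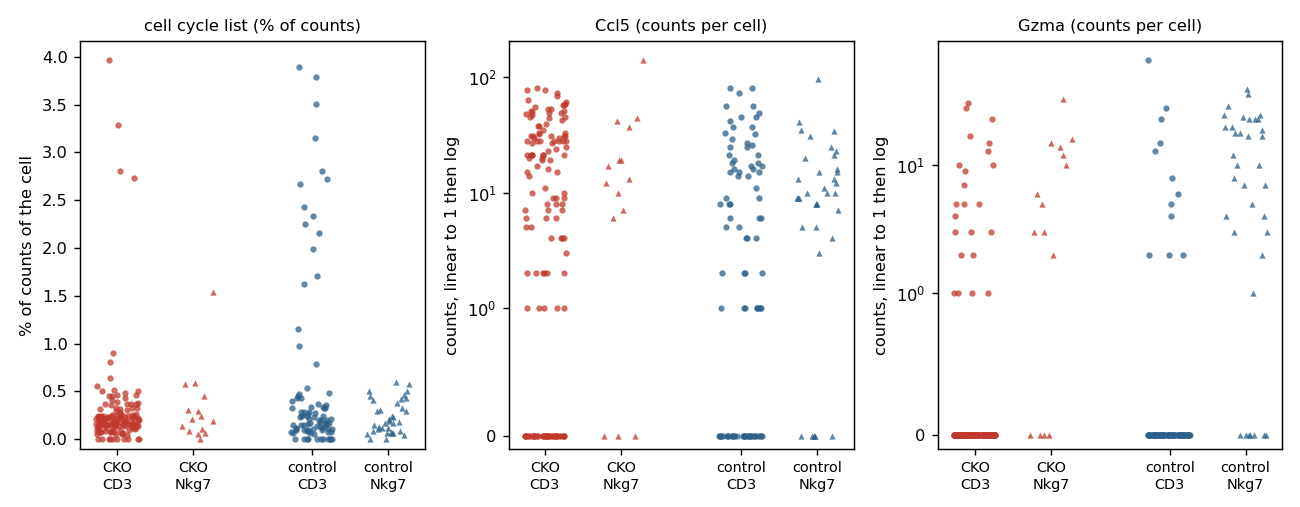
Values of each T and NK cell by library and side (circles for the CD3 side, triangles for the Nkg7 side, CKO for ENPP1CKO, cells between the sides not drawn), with cell cycle genes as a percentage of the cell's counts, and Ccl5 and Gzma as counts per cell (linear to 1, then log). Cells with 1% or more of cell cycle genes number 5 in ENPP1CKO and 15 in control, and the highest Gzma cells hold 33 and 67 counts.

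All 22 measured genes of the cell cycle list were lower in ENPP1CKO T and NK cells (21 under TMM scaling), 10 of them by 2-fold or more, with a median log2 ratio of -0.97, against -0.26 in other barcodes. The summed list stood at 4182 CPM (ENPP1CKO) against 7930 CPM (control). On the Nkg7 side the sum went the other way, at 4413 CPM (ENPP1CKO) against 2337 CPM (control), a log2 ratio of 0.92 (0.55 to 1.28). There, 1 ENPP1CKO cell held 52.6% of the list's counts. Mki67, a marker of dividing cells, had 8 counts in 5 cells against 30 counts in 11 cells. Birc5, survivin, had 10 counts in 5 cells against 42 counts in 11 cells, a log2 ratio of -2.10 (-3.32 to -1.14), and Pclaf, a partner of the replication clamp, had 32 counts in 6 cells against 94 counts in 14 cells, a log2 ratio of -1.63 (-2.27 to -1.05). Rrm2, which makes deoxynucleotides, had 11 counts against 38, a log2 ratio of -1.83 (-2.99 to -0.88).

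Few cells, called dividing here, held a large share of these counts. Cells with 1% or more of their counts from the list numbered 5 of 156 (3.21%, 1.05% to 7.32%) in ENPP1CKO and 15 of 128 (11.7%, 6.71% to 18.6%) in control, and they held 47.2% and 78.0% of the list's counts. All 15 control cells were on the CD3 side, as were 4 of the 5 ENPP1CKO cells, and 7 and 2 of them had a Cd8 count. At a stricter level of 2% of counts, they numbered 4 and 11. The median over all T and NK cells was 0.191% of counts in ENPP1CKO and 0.196% in control. Without the dividing cells, the list's median log2 ratio was 0.14, with 10 of 22 genes lower. These cells were removed for their counts of the same genes, so this value only describes where the counts lie. Dividing cells were deeper, with medians of 3950 counts in ENPP1CKO and 4168 in control. Thinned to 1000 counts, 0.855% (0.0216% to 4.67%) of the CD3-side cells of ENPP1CKO had Mki67, against 7.59% (2.84% to 15.8%) in control, and background shares were 0.219% and 0.457% of collagen-rich and 1.28% and 1.40% of C1q-rich barcodes. The difference rests on these 5 and 15 cells of a single library each.

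Of 10 measured genes of naive and memory T cells, 9 had a log2 ratio over 0 and 1, Klf2, under 0, with a median log2 ratio of 0.61 in all cells, against -0.59 in other barcodes. On the CD3 side alone 8 were over 0 and 2 under, with a median of 0.48. The ratio was small for Satb1, a chromatin organizer, with 48 counts against 42 and a log2 ratio of 0.10. Ccr7, the chemokine receptor for lymph node entry, had 69 counts in 27 cells against 36 counts in 10 cells, a log2 ratio of 0.84 (0.25 to 1.47). Il7r had 111 counts in 48 cells against 59 counts in 24 cells, a log2 ratio of 0.82 (0.36 to 1.30), and 22.2% of ENPP1CKO and 20.3% of control CD3-side cells had it after thinning, against 5.70% and 5.53% of C1q-rich barcodes. The transcription factor Tcf7 had a log2 ratio of 0.77 (-0.08 to 1.70) and Lef1 of 0.52 (-0.17 to 1.24), with limits that included 0. Klf2 was lower in Cd8 cells too, with 7 counts in 7 of 74 ENPP1CKO cells against 42 counts in 16 of 31 control cells. Bcl2, the survival factor, was higher, with 119 counts in 72 cells against 65 counts in 39 cells, a log2 ratio of 0.78 (0.34 to 1.24) in all cells and 1.13 (0.57 to 1.74) on the CD3 side.

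Ly6c2, a surface protein of memory CD8 T cells and monocytes, had 202 counts in 70 ENPP1CKO cells against 110 counts in 29 control cells, a log2 ratio of 0.79 (0.45 to 1.14). Among Cd8 cells, 48 of 74 and 15 of 31 had it, at 963 and 915 CPM, which is 64.9% and 48.4% of them. In cells with no Cd8, Cd4 or Trdc count it was at 485 and 358 CPM. Thinned, Ly6c2 was in 41.9% (32.8% to 51.4%) of ENPP1CKO and 20.3% (12.04% to 30.8%) of control CD3-side cells, against 0.426% and 0.931% of C1q-rich barcodes.

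Of 6 measured genes of the regulatory T cell list, 1 was higher and 5 lower, 2 of them by 2-fold or more, with a median log2 ratio of -0.71. Tnfrsf4 had 7 counts in 4 cells against 63 counts in 11 cells, a log2 ratio of -3.17 (-4.63 to -2.13), and 37 of the 63 control counts were in dividing cells, against 0 of the 7. Without the dividing cells its log2 ratio was -2.20. In other barcodes Tnfrsf4 had a log2 ratio of -2.15 at 0.288 and 1.33 CPM. Ikzf2, the factor Helios, had 28 counts in 17 cells against 55 counts in 18 cells, a log2 ratio of -1.05 (-1.77 to -0.38), and Tnfrsf18, the receptor GITR, 55 counts in 44 cells against 83 counts in 46 cells, a log2 ratio of -0.68 (-1.20 to -0.17). Maf, of the gamma delta and type 17 list, had 11 counts in 9 cells against 34 counts in 16 cells, a log2 ratio of -1.67 (-2.85 to -0.70). Ikzf2 was no longer 2-fold lower in 6 of the other settings: TMM scaling, at least 2 or at least 5 counts of the rule genes, thinning, and without the dividing cells or the cells that hold another cell type's genes.

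Activation receptors were divided, with 6 of 13 measured genes higher and 7 lower and a median log2 ratio of -0.33. Tnfrsf9, the receptor 4-1BB, had 28 counts in 20 cells against 52 counts in 25 cells, a log2 ratio of -0.97 (-1.70 to -0.29), and Rgs1, which dampens chemokine signals in resident T cells, 298 counts against 418, a log2 ratio of -0.58 (-0.80 to -0.36). Pdcd1, the receptor PD-1, had 43 and 34 counts in 19 and 21 cells. Tox was the only gene of the list at 2-fold or more, with 18 counts against 7 and a log2 ratio of 1.215, whose limits included no difference. Homing and adhesion receptors were 8 higher and 6 lower, with a median of 0.08, which was -0.02 after thinning and -0.07 without the dividing cells. Of these, Cxcr3 had a log2 ratio of -0.84 (-1.66 to -0.07) and Itgb2 of -0.93 (-1.63 to -0.27).

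All 8 MHC class I genes were lower in ENPP1CKO, with a median log2 ratio of -0.34, against -0.19 in other barcodes. B2m, the shared light chain, had a log2 ratio of -0.22 (-0.32 to -0.12), the immunoproteasome subunit Psmb9 of -0.92 (-1.58 to -0.30) and the peptide transporter Tap1 of -1.16 (-2.17 to -0.25). Counts of H2 genes are uncertain because members of the family share sequence. All 20 ribosomal protein genes were higher, with a median of 0.29, against 0.07 in other barcodes. Of 19 interferon-stimulated genes, 8 were higher and 11 lower, with a median of -0.02. Genes of the immediate early and dissociation response were 5 higher and 12 lower, with a median of -0.19, and Jund was the lowest of them. Glucocorticoid-responsive genes were 3 higher and 2 lower, with a median of 0.41, against 0.68 in other barcodes, and mitochondrial genes 10 higher and 2 lower, with a median of 0.18 in both T and NK cells and other barcodes. All 4 measured genes of type 2 innate lymphoid cells were lower, with a median of -0.77, against 0.27 in other barcodes. The sign of the interferon median turned in 5 of the other settings tried, TMM scaling among them.

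The study addresses how ENPP1, which hydrolyzes ATP to AMP, acts on neighboring cells, and the genes of that pathway had few counts in T and NK cells. Of 18 purinergic and ecto-nucleotidase genes, 14 had a count and 3 reached 20 counts. Per count they were no sparser than elsewhere, summing to 483 CPM (ENPP1CKO) and 543 CPM (control), against 434 and 529 CPM in other barcodes. P2ry10, a lysophospholipid receptor, had 62 and 49 counts, Nt5e, CD73, which makes adenosine from AMP, 11 and 12 counts, and the channel Panx1 12 and 14 counts. P2rx7, an ATP-gated channel, had 0 counts in ENPP1CKO and 5 counts in 5 control cells. Of 4 measured pyrimidine genes, 1 was higher and 3 lower, and Tyms, also a cell cycle gene, had the lowest ratio, with 7 counts against 21 and a log2 ratio of -1.61 (-3.15 to -0.38). Of 7 measured p53 targets, 6 were lower, none by 2-fold, with a median of -0.25, and Cdkn1a had 37 counts against 56, a log2 ratio of -0.68 (-1.33 to -0.06). Of 9 measured apoptosis regulators, 3 were higher and 6 lower, and Bax had 41 counts against 49. Mcl1, with 20 counts against 9 and a log2 ratio of 1.02, was the only one at 2-fold or more, but its limits included no difference. Bcl2 was higher as given above.

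**Figure D5:**
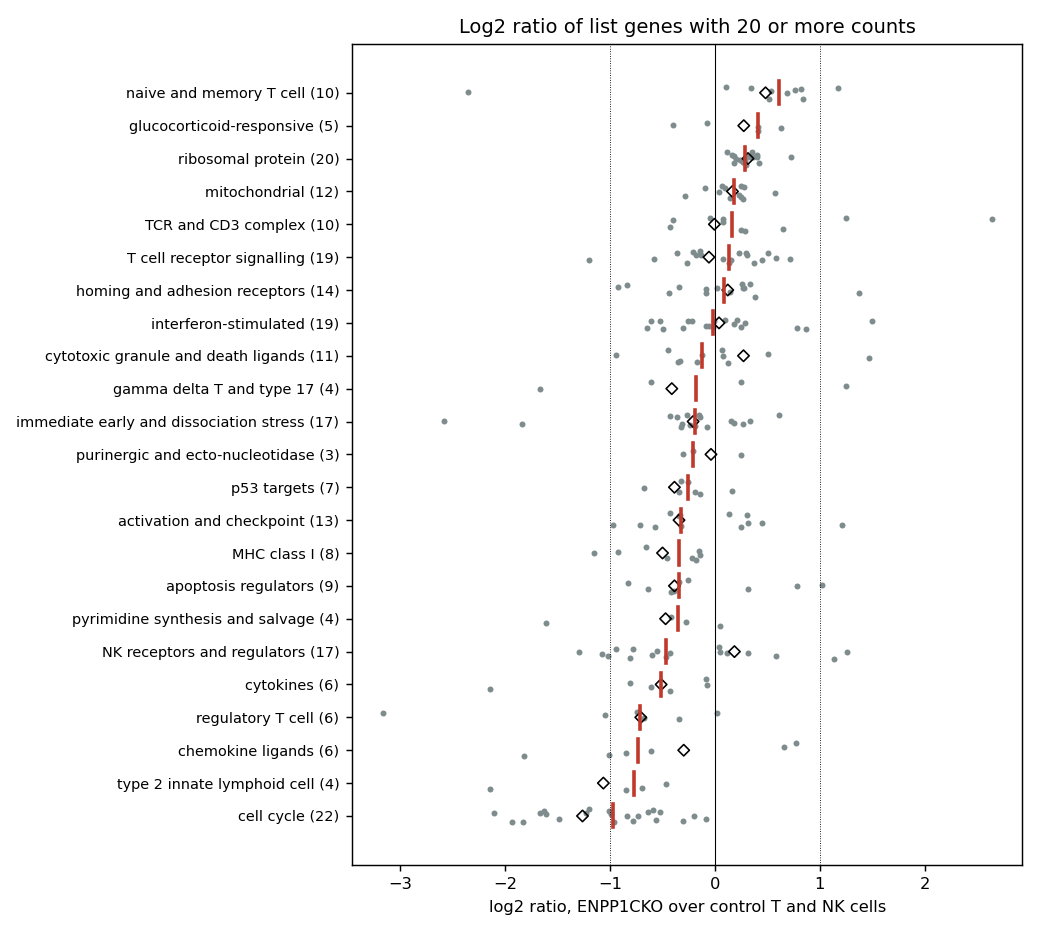
Log2 ratio of ENPP1CKO over control T and NK cells for each list gene with 20 counts or more (grey points), with the list's median (red bar), its median on the CD3 side alone (open diamond) and the number of genes after each list's name. The median is -0.97 for the cell cycle, 0.61 for naive and memory T cells and 0.29 for ribosomal proteins, against -0.09 over all 3393 genes, and diamond and bar lie on opposite sides of 0 for 5 lists, NK receptors among them.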

How the data were processed

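Nonmyocytes of injured hearts at day 7 were profiled by single-cell RNA sequencing, 1 library per genotype. The authors deposited raw molecule counts for every gene identifier and barcode, not normalized. The submitters' processing notes name Cell Ranger, STAR 2.5.3a and the builds mm10 and rn6, with no Cell Ranger version. Columns not used numbered 0. Gene symbols came from GENCODE vM21 (30934 of 31053 identifiers matched).

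Members and gene lists were chosen with earlier results of these data known. Counts of the chosen cells were summed per library and scaled to CPM, and log2 ratios used a prior of 0.5 counts. Genes needed 50 counts in both libraries together (20 for lists, 100 for the genes leading over other barcodes), and 2-fold was the threshold for a count of genes. Named genes were the 15 leading genes over other barcodes, the 12 highest and 12 lowest ratios between genotypes, up to 10 each way between the sides, up to 4 per list, and subset-defining genes, a few of which are not reported here. Ratios carry exact conditional binomial limits, shares Clopper-Pearson limits, all at 95%, covering counting error only. With 1 library per genotype no test was possible. Thinning drew 1000 counts per barcode and left out shallower ones. The calculations were tested on simulated data.

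Analyses used Python 3.11.15, numpy 2.4.6, scipy 1.17.1, pandas 2.3.3, matplotlib 3.10.9, Scrublet in scanpy 1.11.5 (calls were not removed) and, for TMM factors alone, edgeR 4.0.16 in R 4.3.3. Alternatives changed the rule's thresholds, the scaling, the floor on counts and the depth. Removal of cells with another cell type's genes, and of dividing cells, was added after the data were seen. The cultured-cell libraries of the series were not used here.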

Additional observations from a re-analysis of the deposited data

How the results depend on the processing

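Of the shares, 24 of 32 values under other settings stayed within the main limits, of the gene counts 14 of 25 stayed within 1.5 times, of the named genes 361 of 406, and of the list medians 127 of 168. The share of T and NK cells was 1.66% in ENPP1CKO and 1.81% in control with both limits at 0.1%, 0.752% and 1.13% among cells with 2000 counts or more, and 10.1% and 10.3% of barcodes within both limits. The CD3-side share, 87.2% in ENPP1CKO and 69.5% in control with limits that did not overlap, was 79.4% and 69.4% after thinning, and 70.5% and 63.3% when cells were divided by whether the 5 T cell genes exceeded Nkg7, with overlapping limits under both settings. Genes at least 2-fold higher in ENPP1CKO numbered 93 with a floor of 20 counts, 2123 with a floor of 1 count, 17 with TMM scaling, 27 with 2 counts of the rule genes, 4 after thinning and 6 without cells holding another cell type's genes. Genes at least 2-fold lower numbered 210, 2357, 36, 99, 17 and 37 in the same order. Genes at least 2-fold higher than in other barcodes numbered 783 with a floor of 20 counts. Lower floors test more genes, and thinning leaves fewer counts. For the other changes the cause was not tested.

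Directions turned for Fabp4, at -0.66 without cells holding another cell type's genes, and for Stmn1 (0.22) and Mki67 (1.21) without dividing cells, which were removed for high counts of these same genes. Ratios near 0 also turned for Trdc (0.25 to -0.03) and Nkg7 (0.08 to -0.03) without dividing cells, and for Gzmb (-0.17 to 0.02) on the CD3 side alone. All 11 control cells with Mki67 were among those removed, so the Mki67 value is set by the prior count and gives no direction. List medians turned sign on the CD3 side alone for the receptor complex (-0.00), receptor signaling (-0.06), NK receptors (0.19) and granule genes (0.27), after thinning (-0.02) and without dividing cells (-0.07) for homing receptors, without dividing cells for the cell cycle (0.14), and in 5 settings for interferon-stimulated genes. Of the 47 lower genes, 36 kept a 2-fold difference with TMM scaling, 37 on the CD3 side alone, 37 without cells holding another cell type's genes and 34 without dividing cells. No paired analysis was possible because each genotype had 1 library, and for the same reason no replicate could be left out. A gene at 0 counts could be as high as 10.6 CPM in ENPP1CKO or 11.2 CPM in control.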
